A study of Homo sapiens with 4 samples.

Results

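The genes described here are 10 components of the extracellular matrix, or of its attachment to the cell, that mark mesenchymal cells: FN1, SPARC, TNC, TGFBI, LOX, LOXL2, CD44, VCAN, POSTN and CCDC80. They were taken by gene name from the table of 27694 genes, in which all 10 were found, each once. The RNA came from LN229, an established human glioblastoma line, sampled 24 h after addition of 100 nM UM-164, which inhibits both c-Src and p38 MAPK (2 libraries), or of vehicle, which was DMSO (2 libraries). Nothing in the sources used here tells whether the libraries of a group were grown as separate cultures, so every p-value here reflects how far these 4 libraries scatter, and part or all of that scatter may be technical. The question was how this set of genes differed between UM-164-treated and vehicle-treated cells.

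Matrix glycoproteins are secreted or cell-surface proteins that cells assemble around themselves and pull on through integrins and CD44. Fibronectin, encoded by FN1, is assembled into fibrils by integrins, and tenascin-C and periostin bind to those fibrils. Lysyl oxidases crosslink collagen and elastin and so stiffen the matrix, SPARC binds collagen and modulates adhesion, and versican, encoded by VCAN, is a large proteoglycan that binds hyaluronan. CD44 is the main cell-surface receptor for hyaluronan and a marker of the mesenchymal state of glioblastoma, a state in which many of these genes are abundant.

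Expression is given as FPKM (fragments per kilobase of transcript scaled to the number of mapped fragments), which is per length, so levels can be set side by side between genes. The genes spanned more than 4 orders of magnitude on this scale. SPARC was the most abundant, ranking 60 of all 27694 genes by mean FPKM in UM-164 libraries and 66 in vehicle libraries. FN1 ranked 161 in UM-164 libraries and 156 in vehicle libraries, and LOXL2 ranked 287 in UM-164 libraries and 191 in vehicle libraries. Next came TNC, TGFBI and CD44, then VCAN and CCDC80 at a few FPKM, and last LOX and POSTN, both at most 0.07045 FPKM in any library. In the UM-164 libraries each gene lay apart from the next in the order, except LOX and POSTN. FN1 and LOXL2 did not separate in the vehicle libraries, since vehicle replicate 1 had 185.8 FPKM of FN1 beside 183.8 FPKM of LOXL2, and VCAN and CCDC80 overlapped there as well. The 10 genes together made up 0.32% and 0.319% of the summed FPKM in the UM-164 libraries and 0.328% and 0.383% in the vehicle libraries, and SPARC with FN1 took 73.2% of the set's sum in both UM-164 libraries, against 64.5% and 65.9% in the vehicle libraries.

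**Figure D1:**
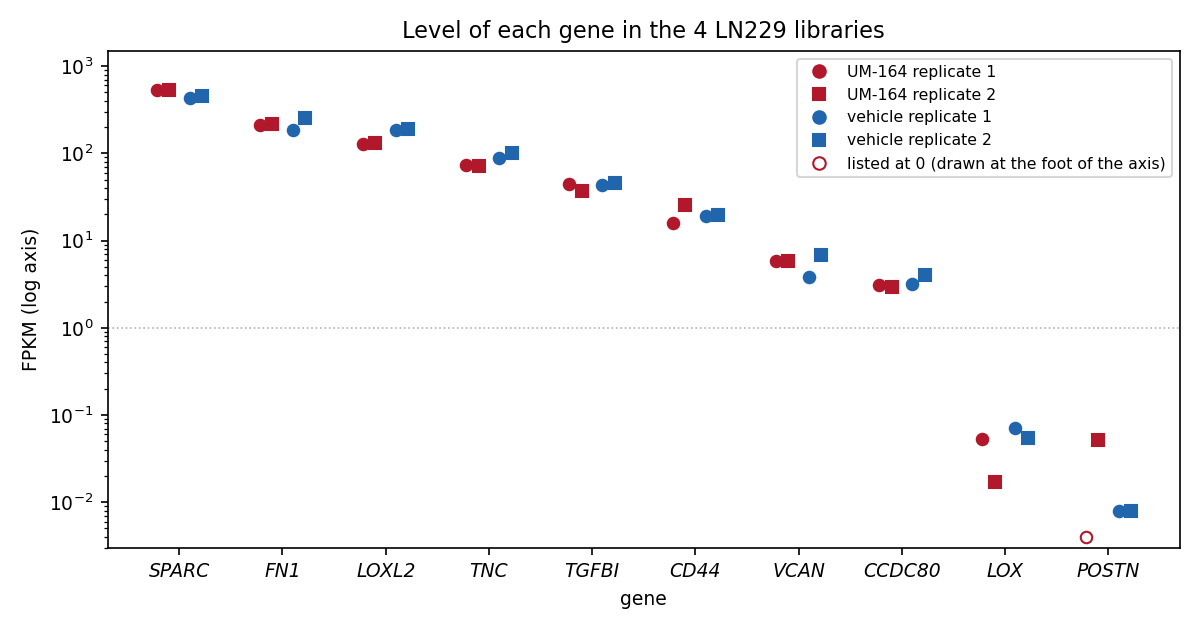
FPKM of each of the 10 genes (log axis) in the UM-164 (red) and vehicle (blue) libraries, replicate 1 as circles and replicate 2 as squares; the dotted line marks 1 FPKM, and the open circle is POSTN, listed at 0 in UM-164 replicate 1. LOXL2 and TNC sit lower in both UM-164 libraries, SPARC higher, while LOX and POSTN stay at or under 0.07045 FPKM.

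Most other markers of the mesenchymal glioma state were present, and some proneural markers were too. Of 17 mesenchymal markers and regulators, 14 had a mean of at least 1 FPKM, as did 5 of 10 proneural markers. VIM, the mesenchymal intermediate filament gene, had 346.2 and 425.7 FPKM in UM-164 libraries and 622.5 and 494.1 FPKM in vehicle libraries. TIMP1 had 635.9 and 609.9 FPKM in UM-164 libraries and 582.4 and 575.9 FPKM in vehicle libraries, and FN1 and CD44 were present in all 4 libraries. CHI3L1, a secreted glycoprotein widely used to mark mesenchymal glioma, was at or under 0.07003 FPKM in every library. SOX10, a glial lineage factor placed in the proneural list, had 200.1 and 195.3 FPKM in UM-164 libraries and 188.0 and 180.9 FPKM in vehicle libraries. Other genes of the proneural list were lower. Over the 4 libraries SOX2 had 22.51 to 29.04 FPKM, NCAM1 had 1.125 to 1.435 FPKM and SOX11 at most 0.06817 FPKM. Of 12 markers of leukocytes, endothelium and epithelium, 9 had a mean under 1 FPKM. The remaining markers were CD68, KRT18 and KRT19, and the 12 summed to 40.87 to 56.81 FPKM in UM-164 libraries and 44.08 to 44.85 FPKM in vehicle libraries.

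Of the 10 genes, 8 had a mean of at least 1 FPKM over the 4 libraries and were compared with limma on log2(FPKM + 0.5), in a fit over all 11516 genes that passed this filter. None of the 8 passed an adjusted p of 0.05 in either direction (Benjamini-Hochberg over all tested genes), where 0.86% of all tested genes were called lower and 0.452% higher. At an unadjusted p under 0.05 from limma, LOXL2 and TNC were lower and SPARC was higher, so 2 of 8 were lower against 10.6% of all tested genes, and 1 of 8 was higher against 9.47%. Over the alternatives 1 to 3 were lower and 0 to 3 higher. The UM-164 values were both below the vehicle values for 3 of the 8 (LOXL2, TNC and CCDC80) and above them for 1 (SPARC), against 25.5% and 27.7% of all tested genes. The median log2 fold change of the 8 genes was -0.08, with 5 below 0 and 3 above, beside a median of 0.01 over all tested genes. An exact permutation test of a single gene cannot go below p = 0.33 with 2 libraries a group. In bulk RNA, fewer cells with a transcript and less of it per cell cannot be told apart.

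**Figure D2:**
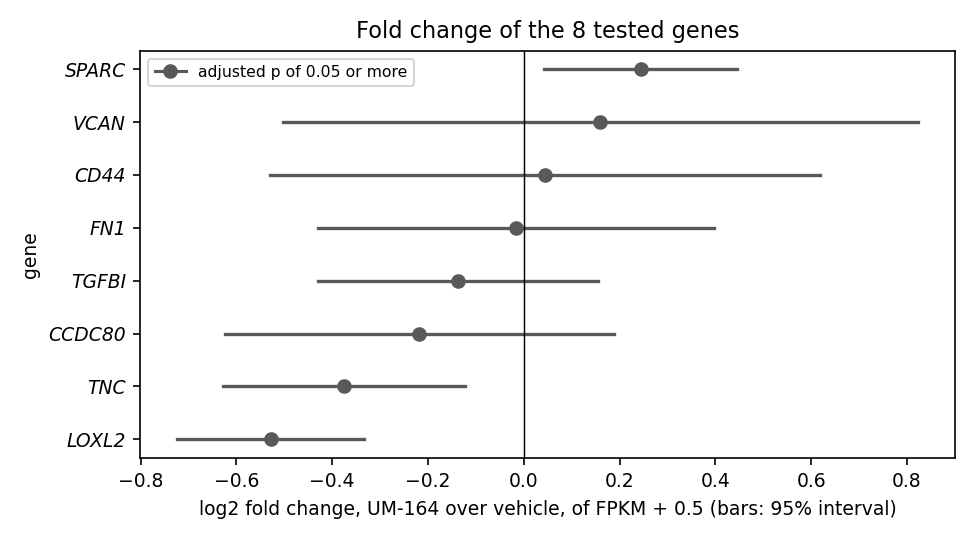
Log2 fold change of FPKM + 0.5, UM-164 over vehicle, for the 8 tested genes with 95% intervals from limma. The interval of LOXL2 runs from -0.72 to -0.33 and that of VCAN from -0.50 to 0.82; no gene passed an adjusted p of 0.05.

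LOXL2, a secreted lysyl oxidase that acts on matrix collagen, had the largest log2 fold change in size among the 8 tested genes. The gene lies on the minus strand of chromosome 8, from 23297189 to 23425328 (GRCh38, GENCODE v29). Its FPKM was 129.2 and 130.5 in the UM-164 libraries, against 183.8 and 191.1 in the vehicle libraries. The groups were far apart compared with the gaps inside them. The log2 fold change was -0.53 (standard error, SE, 0.08; limma adjusted p = 0.0540), which on the log2(FPKM + 0.5) scale places the level in UM-164 cells at 69.4% of vehicle (95% interval 60.6 to 79.4%), just short of the threshold. It crossed the threshold when only genes with a mean of at least 5 FPKM were tested (limma adjusted p = 0.0409) and when protein-coding genes were rescaled to 1 sum (0.0284), and over all 14 alternatives the adjusted p ran from 0.0284 to 0.223. A short stretch, 2.1% of its exon length, is shared with ENTPD4 on the same strand, at 3.832 to 4.623 FPKM in all libraries.

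The other lysyl oxidases put LOXL2 in context. LOXL3, its closest relative in level, had 89.23 and 89.88 FPKM in UM-164 libraries and 126.1 and 124.5 FPKM in vehicle libraries, a log2 fold change of -0.48 (limma adjusted p = 0.0601) that also missed the threshold. LOXL3 crossed it under the same alternatives as LOXL2, with limma adjusted p = 0.0457 under the filter at 5 FPKM and 0.0299 with protein-coding genes rescaled. LOX, the founding member of the family (minus strand of chromosome 5, from 122063195 to 122078360), had 0.05255 and 0.01696 FPKM in UM-164 libraries and 0.07045 and 0.05511 FPKM in vehicle libraries. At that level no comparison was made, and LOXL1 and LOXL4 were likewise at most 0.1658 FPKM in any library. LOXL2 therefore supplied 59.1% and 59.2% of the summed FPKM of the 5 family genes in UM-164 libraries and 59.3% and 60.5% in vehicle libraries, and LOXL3 nearly all of the rest. The family sum was 218.6 and 220.5 FPKM in UM-164 libraries and 309.9 and 315.9 FPKM in vehicle libraries, while the LOXL2 to LOXL3 ratio was 1.45 in both UM-164 libraries and 1.46 and 1.53 in vehicle libraries. HTRA2 and DOK1, both on the opposite strand, share 14.3% and 4.95% of the exon length of LOXL3. Without a stated strand setting their reads cannot be told apart there. HTRA2 had 18.05 and 18.06 FPKM in UM-164 libraries and 15.6 and 14.99 FPKM in vehicle libraries. DOK1 had 10.65 and 24.04 FPKM in UM-164 libraries and 33.13 and 31.9 FPKM in vehicle libraries. Their share in the LOXL3 values was not tested. Of the proteins that mature or assist these enzymes, BMP1, which cleaves the propeptide of LOX, had a log2 fold change of -0.11 and PCOLCE, which enhances BMP1 activity on procollagen, one of -0.01. None of the 3 tested genes of this list passed.

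The patterns most like that of LOXL2 over the 4 libraries, by distance between the log2(FPKM + 0.5) values after each gene's mean was taken away, were those of NTM, TDP1 and FHL2, at distances of 0.02, 0.02 and 0.03. FHL2, a LIM-domain protein gene, had 15.2 and 15.75 FPKM in UM-164 libraries and 21.76 and 22.71 FPKM in vehicle libraries. These are 3 genes out of 11516 matched over 4 points only, so the likeness is a description.

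TNC, encoding tenascin-C, an anti-adhesive glycoprotein abundant in glioma matrix, lies on the minus strand of chromosome 9, from 115019578 to 115118257 (GRCh38, GENCODE v29). It had 73.27 and 70.98 FPKM in UM-164 libraries, against 87.48 and 100.4 FPKM in vehicle libraries, so the groups did not overlap, although the gap between the vehicle libraries was nearly as wide as the gap between the groups. The log2 fold change was -0.38 (SE 0.10, limma adjusted p = 0.140), or 77.1% of vehicle with a 95% interval of 64.7 to 91.8%. TNXB and TNN, the other tenascins in the table, were at most 0.1211 FPKM in any library.

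SPARC, a collagen-binding matricellular protein also called osteonectin, lies on the minus strand of chromosome 5, from 151661096 to 151687165 (GRCh38, GENCODE v29), and was the gene that differed upward. It had 526.1 and 526.6 FPKM in UM-164 libraries and 433.6 and 455.5 FPKM in vehicle libraries. The UM-164 libraries agreed within 0.0924% of their mean and both lay above the vehicle libraries. The log2 fold change of 0.24 (SE 0.08, limma adjusted p = 0.189) corresponds to 118% of vehicle, with a 95% interval of 103 to 136%. In 8 of the 14 alternatives no gene of the set was higher at an unadjusted limma p under 0.05, SPARC included, and under quantile normalization its log2 fold change was 0.162. The ratio of SPARC to LOXL2 inside each library, which does not depend on library scaling, was 4.07 and 4.04 in UM-164 libraries, against 2.36 and 2.38 in vehicle libraries. These are the tested genes of the set with the largest upward and downward log2 fold changes. The separation of their ratio follows from that choice and says nothing more about SPARC. The ratio of SPARC to FN1 was 2.46 and 2.43 in UM-164 libraries, against 2.33 and 1.78 in vehicle libraries. Among SPARC relatives, the testican gene SPOCK1 had 26.52 and 26.78 FPKM in UM-164 libraries, against 29.36 and 38.81 FPKM in vehicle libraries, and the follistatin-like gene FSTL1 had a log2 fold change of -0.10, and neither passed.

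FN1, VCAN and CCDC80 differed more between the vehicle libraries than between the groups. FN1 lies on the minus strand of chromosome 2, from 215360440 to 215436172 (GRCh38, GENCODE v29). Fibronectin RNA stood at 214.0 and 216.9 FPKM in UM-164 libraries, inside the span of the vehicle libraries at 185.8 and 255.5 FPKM. The log2 fold change was -0.02 (SE 0.16, limma adjusted p = 0.963), with a 95% interval of 74.2 to 132% of vehicle. Its direction depends on the vehicle libraries, since the log2 fold change was -0.24 without vehicle replicate 1 and 0.21 without vehicle replicate 2 (adjusted p = 0.196 and 0.233 from limma). The table has 1 value per gene, and FN1 has 26 listed transcripts, so spliced forms such as those with the extra domains were not resolved.

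VCAN lies on the plus strand of chromosome 5, from 83471465 to 83582303 (GRCh38, GENCODE v29). It had 5.807 and 5.785 FPKM in UM-164 libraries, both inside the vehicle span of 3.845 and 6.807 FPKM. Its log2 fold change of 0.16 (SE 0.26, limma adjusted p = 0.770) was -0.22 without vehicle replicate 1 and 0.54 without vehicle replicate 2. CCDC80, a secreted matrix-associated protein (minus strand of chromosome 3, from 112596794 to 112649530), had 3.089 and 2.959 FPKM in UM-164 libraries and 3.169 and 4.077 FPKM in vehicle libraries. The groups did not overlap, by a narrow margin, and its log2 fold change was -0.22 (SE 0.16, limma adjusted p = 0.492). It was -0.38 without vehicle replicate 1 and -0.06 without vehicle replicate 2.

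The disagreement between the vehicle libraries ran with transcript length. Tested protein-coding genes were put in 10 classes by the longest transcript listed for them. Between UM-164 replicate 1 and replicate 2, the median log2 difference of a class lay between -0.02 and 0.06. Between vehicle replicate 1 and replicate 2 it went from 0.11 in the shortest class to -0.23 in the longest, lower in each class than in the one before. TNC, FN1, CCDC80 and VCAN all belong to the longest class, with longest transcripts of 7641, 9171, 12430 and 12625 bases. Their log2 differences between the vehicle libraries were -0.20, -0.46, -0.32 and -0.75, each negative as in the class as a whole. Those of FN1, CCDC80 and VCAN were larger in size than the class median of -0.23. SPARC and LOXL2, with 3701 and 3549 bases, differed by -0.07 and -0.06. TGFBI, with 4661 bases, differed by -0.09. CD44 did not follow its length: with 5732 bases it differed by only -0.03, in a class with a median of -0.17. When each library was centred on its median within 20 length classes, an alternative added after the data were seen, the log2 fold changes were -0.05 for FN1, 0.12 for VCAN, -0.26 for CCDC80, -0.40 for TNC, -0.50 for LOXL2 and 0.27 for SPARC, and none passed (lowest adjusted p = 0.0519 from limma, for LOXL2). What made the vehicle libraries differ in this way was not tested.

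**Figure D3:**
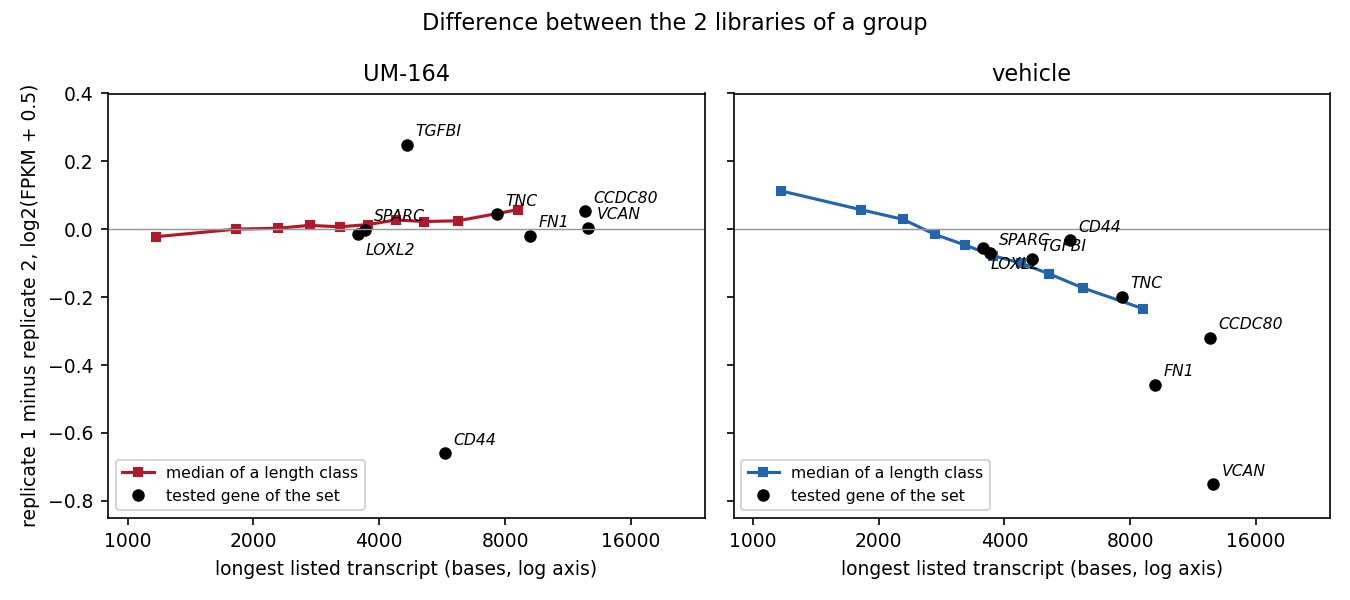
Difference between replicate 1 and replicate 2 in log2(FPKM + 0.5), against the longest listed transcript (log axis), within the UM-164 group (left) and the vehicle group (right); lines join the medians of 10 length classes of tested protein-coding genes, and black points are the 8 tested genes of the set. The vehicle line falls to -0.23 in the longest class, and VCAN, FN1 and CCDC80 lie below its end; CD44 stands apart in the UM-164 group at -0.66.

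CD44 lies on the plus strand of chromosome 11, from 35138870 to 35232402 (GRCh38, GENCODE v29). The hyaluronan receptor gene was the reverse case, with its spread in the treated group: 15.85 and 25.34 FPKM in UM-164 libraries around 19.23 and 19.66 FPKM in vehicle libraries. The UM-164 libraries lay to either side of both vehicle libraries, and the log2 fold change of 0.04 (SE 0.22, limma adjusted p = 0.933) was 0.37 without UM-164 replicate 1 and -0.29 without UM-164 replicate 2. The 95% interval of 69.2 to 153% of vehicle covers differences of either sign as large as that of LOXL2. With 27 listed transcripts, CD44 is a heavily spliced gene whose variant exons cannot be followed in a value per gene. The genes nearest to its pattern, AC000089, TMEM164 and RIOK1, showed the same high UM-164 replicate 2, as TMEM164 did with 6.702 and 10.41 FPKM in UM-164 libraries and 8.075 and 8.374 FPKM in vehicle libraries. They were picked for their likeness to CD44 over these same libraries, so this too is only a description.

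TGFBI, a secreted adhesion protein named for its induction by TGF-beta (plus strand of chromosome 5, from 136028895 to 136063818), had 44.28 and 37.18 FPKM in UM-164 libraries and 43.28 and 46.06 FPKM in vehicle libraries. UM-164 replicate 1 fell between the vehicle libraries, and the log2 fold change was -0.14 (SE 0.11, limma adjusted p = 0.552). It was -0.26 without UM-164 replicate 1 and -0.01 without UM-164 replicate 2. POSTN, which encodes periostin and shares its fasciclin-like domains with TGFBI (minus strand of chromosome 13, from 37562583 to 37598844), was listed at 0 and at 0.05165 FPKM in UM-164 libraries and at 0.007969 and 0.007923 FPKM in vehicle libraries. Neither POSTN nor LOX reached the level at which genes were tested, so the absence of a call for them carries no information on UM-164.

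The promoters of SPARC, TNC and LOX are shown because SPARC and TNC are genes of opposite direction whose groups separated, and LOX is the near-silent relative of an abundant family. RefSeq sequences (GRCh38.p14, from 250 bases before to 50 after a start site) were found for 9 of the 10 genes, all but LOXL2. Capitals mark matches on either strand to GGAATG, the core bound by TEAD factors, to TGANTCA, the AP-1 site, to the CArG box of SRF, or to ACGTG, the core of the hypoxia response element. The windows are chr5:151686866-151687165 for SPARC, chr9:115118108-115118407 for TNC and chr5:122078210-122078509 for LOX, all on the minus strand and written 5′ to 3′.
SPARC: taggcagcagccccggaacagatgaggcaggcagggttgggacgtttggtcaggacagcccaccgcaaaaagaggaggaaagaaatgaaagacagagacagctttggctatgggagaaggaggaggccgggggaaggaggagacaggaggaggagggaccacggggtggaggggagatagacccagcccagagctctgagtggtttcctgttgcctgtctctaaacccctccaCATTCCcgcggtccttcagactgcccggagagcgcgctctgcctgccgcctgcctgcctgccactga
TNC: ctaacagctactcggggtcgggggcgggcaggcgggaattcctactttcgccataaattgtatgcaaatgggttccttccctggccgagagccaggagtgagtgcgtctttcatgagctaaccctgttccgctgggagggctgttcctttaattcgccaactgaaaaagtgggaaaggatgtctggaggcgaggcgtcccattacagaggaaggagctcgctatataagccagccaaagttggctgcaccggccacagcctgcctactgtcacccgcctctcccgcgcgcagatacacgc
LOX: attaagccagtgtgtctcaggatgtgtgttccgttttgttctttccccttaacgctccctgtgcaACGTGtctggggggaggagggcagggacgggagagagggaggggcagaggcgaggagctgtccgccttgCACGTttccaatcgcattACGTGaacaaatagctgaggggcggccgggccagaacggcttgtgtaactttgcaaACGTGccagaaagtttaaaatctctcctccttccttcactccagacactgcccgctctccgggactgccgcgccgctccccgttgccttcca

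SPARC holds a TEAD core in reverse orientation, at -17 from its start, and was the only one of the 9 genes with such a match, where 14.0% of the 35116 promoters in the table have it. TNC, which sits lower in UM-164 libraries, has no match to any of the 4 motifs in this window. LOX holds 4 matches to ACGTG in this window, and 3 of the 9 genes (LOX, CD44 and CCDC80) have at least 1 near some listed start, against 21.4% of all promoters. POSTN has an AP-1 match at -220, against 7.71% of all promoters, and none of the 9 genes has a CArG box, which is in 1.29% of all promoters. The counts of genes take any listed start of a gene, of which LOX has several, while the shares are of single promoters. The counts and shares are therefore not on the same basis. A match is a run of letters and not evidence of binding, and sites outside these windows were not searched.

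Calls appeared among the receptors that hold cells to these proteins. The list had 13 tested genes, for receptors of fibronectin, tenascin-C and periostin and for proteins that link CD44 to actin. Of these, ITGA9 rose, SDC4 fell and 11 did not pass. Of all tested genes, 0.86% were called lower and 0.452% higher. ITGA9, the integrin alpha subunit that pairs with beta1 to bind tenascin-C, had 10.16 and 10.13 FPKM in UM-164 libraries, against 3.184 and 3.753 FPKM in vehicle libraries. Its log2 fold change was 1.43 (SE 0.12, limma adjusted p = 0.0207), that is 269% of vehicle with a 95% interval of 216 to 335%. The partner ITGB1 had 107.2 and 144.1 FPKM in UM-164 libraries and 129.4 and 141.9 FPKM in vehicle libraries, so ITGA9 remained the less abundant chain throughout. SDC4, the syndecan that acts with integrin alpha5beta1 on fibronectin, fell to 66.67 and 63.72 FPKM in UM-164 libraries, against 113.1 and 112.6 FPKM in vehicle libraries. Its log2 fold change was -0.79 (SE 0.08, limma adjusted p = 0.0256).

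The rest of that list gave values in both directions, more of them lower, without a call. The counts and the median that follow are over all 13 genes, SDC4 and ITGA9 included. At an unadjusted limma p under 0.05, 6 of the 13 were lower and 2 higher, against 10.6% and 9.47% of all tested genes. Both UM-164 values lay below both vehicle values for 7 of the 13 and above them for 2, against 25.5% and 27.7%. The median log2 fold change of the 13 was -0.219. SDC1 had a log2 fold change of -0.57 and SDC2 one of 0.54, with adjusted p = 0.113 and 0.0731 from limma. The fibronectin receptor chain ITGA5 had 26.09 and 25.81 FPKM in UM-164 libraries and 29.7 and 30.95 FPKM in vehicle libraries. Of the proteins that tie CD44 to actin, ezrin (EZR) had a log2 fold change of -0.68, moesin (MSN) of -0.30 and radixin (RDX) of 0.14, with adjusted p = 0.0942, 0.148 and 0.723 from limma. Without vehicle replicate 1 and without vehicle replicate 2, ITGA9 had adjusted p = 0.0996 and 0.0951 from limma and SDC4 had 0.108 and 0.113. SDC4 also missed the threshold without UM-164 replicate 1 or 2 (adjusted p = 0.0670 and 0.101 from limma), and both genes missed it with no filter on low values. A library left alone in its group was taken to have the spread of the other group in these fits, and the directions did not turn.

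**Figure D4:**
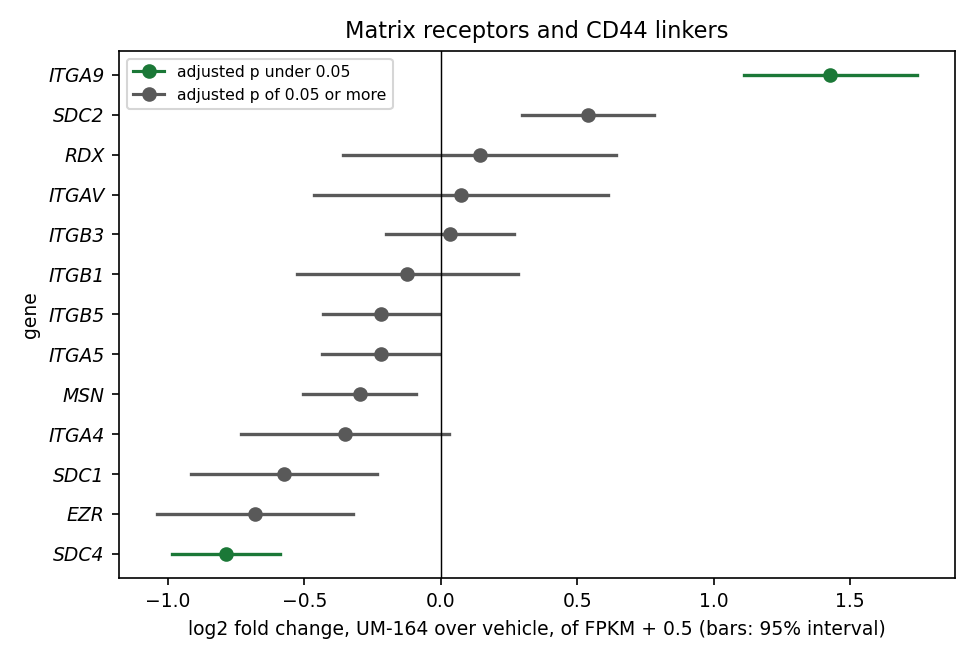
Log2 fold change of FPKM + 0.5, UM-164 over vehicle, with 95% intervals from limma, for 13 genes of matrix receptors and CD44 linkers; green marks an adjusted p under 0.05. ITGA9 is at 1.43 and SDC4 at -0.79.

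Hyaluronan, the ligand of CD44 and VCAN, had few tested genes. Of its synthases, HAS2 and HAS3 were under 1 FPKM in every library. None of the 5 tested genes of hyaluronan breakdown and binding passed, among them CEMIP2, a cell-surface hyaluronidase, with 9.126 and 7.75 FPKM in UM-164 libraries and 5.035 and 7.099 FPKM in vehicle libraries, and HYAL3, with 3.581 and 6.429 FPKM in UM-164 libraries and 3.587 and 2.997 FPKM in vehicle libraries. The log2 fold change of HYAL3 was 0.49, or 0.11 without UM-164 replicate 2. The link protein gene HAPLN3, the only tested gene of the other tenascins, lecticans and link proteins, had a log2 fold change of 0.16. Of 5 tested proteinases that cut these proteins none passed. ADAMTS15, a versican-cleaving enzyme, had the smallest p, with 2.664 and 3.639 FPKM in UM-164 libraries and 4.898 and 5.008 FPKM in vehicle libraries. ADAMTS1, of the same kind, had a log2 fold change of -0.25, and MMP14, a membrane proteinase, one of 0.10.

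None of 18 other matrix glycoproteins and small proteoglycans passed, and their median log2 fold change was -0.05, with 12 below 0 and 6 above. FSTL3, a secreted activin antagonist, had 11.84 and 9.877 FPKM in UM-164 libraries, against 27.33 and 19.44 FPKM in vehicle libraries (log2 fold change -1.06, limma adjusted p = 0.0773). It was called lower with the replicate block (0.0263) and with protein-coding genes rescaled (0.0343). EFEMP1, the fibulin-3 gene, had 44.35 and 43.77 FPKM in UM-164 libraries and 61.17 and 79.88 FPKM in vehicle libraries (log2 fold change -0.66, limma adjusted p = 0.10). By unadjusted limma p under 0.05, 2 genes of the 18 were lower and 1 was higher, close to or under the 10.6% and 9.47% of all tested genes.

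Among markers and regulators of the mesenchymal glioma state, VIM and CEBPB did not pass. For VIM the log2 fold change was -0.53 (limma adjusted p = 0.174). CEBPB, a regulator of the mesenchymal state, had one of 0.52 (limma adjusted p = 0.0772), and passed only with protein-coding genes rescaled (0.043). Among 5 tested proneural markers none passed, and OLIG2, an oligodendrocyte lineage factor, had 6.09 and 5.886 FPKM in UM-164 libraries and 3.506 and 2.24 FPKM in vehicle libraries (log2 fold change 0.97, limma adjusted p = 0.0992). PDGFRA, near the filter, had 1.288 and 1.418 FPKM in UM-164 libraries and 0.5557 and 0.8249 FPKM in vehicle libraries (log2 fold change 0.65, limma adjusted p = 0.182). The log2 fold changes of SOX10, NCAM1 and SOX2 were 0.10, 0.05 and -0.21.

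A difference in library composition accompanied the treatment. A list of 8 ribosomal, 7SL and similar non-coding RNAs made up 0.98% and 1.12% of the summed FPKM in UM-164 libraries. In vehicle libraries it made up 0.427% and 0.492%. All 8 had both UM-164 values above both vehicle values, against 27.7% of all tested genes. Of the 8, 6 were called higher, against 0.452% of all tested genes. These 6 were RN7SL1 at a log2 fold change of 2.26, RN7SL2 at 3.33, RN7SL4P at 3.23, RN7SK at 1.91, MT-RNR1 at 1.64 and MT-RNR2 at 1.15. RMRP, at 2.03, and RPPH1, at 0.75, did not pass (limma adjusted p = 0.102 and 0.112). RN7SL4P lost its call in 8 of 12 alternatives (limma adjusted p = 0.0802 with a pseudocount of 0.1) and MT-RNR2 in 6 of 13. Without vehicle replicate 1 all 6 missed the threshold (limma adjusted p between 0.0522 and 0.119), and without vehicle replicate 2 all but RN7SL2 did. The part of this in the values above was not tested. Under median-ratio scaling, which does not use the sum, the log2 fold change was -0.535 for LOXL2, -0.384 for TNC and 0.236 for SPARC.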

How the data were processed

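RNA-seq of LN229 cells was analysed in 2 UM-164 and 2 vehicle libraries, with replicate numbers from the labels. Tools named in the submitters' processing notes are cutadapt 1.9 and FastQC, with build GRCh38, and HISAT2 appears in the text of the series. The authors deposited FPKM per gene and library, by a program not given in the sources used here. Their 4 columns of fold change, log2 fold change, p-value and q-value were not used.

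The 11516 of 27694 genes whose mean reached 1 FPKM were compared on log2(FPKM + 0.5) with limma 3.58.1 in R 4.3.3, with a variance trend and Benjamini-Hochberg adjustment at 0.05 over all of them. The pseudocount understates fold changes of low genes. On simulated data the test recovered 42.2% of changes of log2 size 1 and 87.0% of changes of log2 size 2. The largest log2 fold change among the tested genes of the set was smaller, at -0.53 for LOXL2. The absence of a call for these genes therefore does not show that they were unchanged. Read counts are not in the table: the step between low values differed by at most 1.1 times between libraries, but whole reads could not be recovered, so the depth behind each value is unknown. The members and lists were chosen with earlier results of these data known. All members were named. Of each other list, genes at an adjusted p under 0.05 were named or, where fewer than 2 passed, those with the smallest p, and the 3 genes nearest in pattern to LOXL2 and to CD44. PCOLCE, ITGB1, ITGA5, SDC1, SDC2, EZR, MSN, RDX, MMP14, VIM, CHI3L1, SOX10 and others outside that rule were chosen after seeing their values. A result for the list of mesenchymal glioma markers is not reported here. Alternatives were the pseudocount, the filter, 3 scalings, no trend, each library left out, the replicate block and centring by transcript length. Transcript lengths and coordinates are those of GENCODE v29. Python 3.11.15 made the tables.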

Additional observations from a re-analysis of the deposited data

How the results depend on the processing

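Over the 14 alternatives, 106 of 111 values of the 8 tested matrix genes kept their direction and their side of the threshold. None of the 8 was called in the main fit, so keeping their side meant staying uncalled. The 2 changed filters, the fit without a trend and the replicate block also leave the log2 fold change itself as it was. The 106 is therefore a weak measure of stability. No gene of the set was called higher under any alternative. LOXL2 was called lower, making 1 gene of the set, and LOXL3 with it, with a filter at a mean of 5 FPKM and with protein-coding genes rescaled to 1 sum. Leaving out each library in turn gave log2 fold changes from -0.245 to 0.213 for FN1, from -0.215 to 0.535 for VCAN, from -0.286 to 0.374 for CD44, from -0.261 to -0.0118 for TGFBI (which kept its sign), from -0.195 to 0.00392 for FSTL1 and from -0.0339 to 0.2 for CD68, all but TGFBI crossing 0.

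Over all tested genes, 99 were lower and 52 higher. These counts were 1 and 3 with no filter, 28 and 22 without the variance trend, and 227 and 96 with protein-coding genes rescaled. With the filter at 5 FPKM, 158 were lower. Leaving out each library gave 0 to 70 lower and 4 to 45 higher. The 0 came from limma without either vehicle library, where 1292 (without replicate 1) and 1081 (without replicate 2) were lower at an unadjusted p under 0.05. Deviations of same-numbered libraries correlated at -0.0556. This 1 value cannot tell whether same-numbered libraries were paired or prepared together, which the sources used here do not state. With the replicate block 107 were lower and 57 higher, and LOXL2 had adjusted p = 0.0845 and FSTL3 0.0263 from limma. SDC4 also missed the threshold without the variance trend (0.0792 from limma). The causes of these shifts were not tested. The depth behind each FPKM is unknown, and the near-silent LOX and POSTN were not tested.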
